A study of Mus musculus with 6 samples.

Results

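Müller glia are the radial glial cells of the retina, and a set of 9 genes that serve their housekeeping of glutamate, potassium, water, acid and retinoid was followed in RNA of sorted mouse retinal cells. The genes Glul, Slc1a3, Kcnj10, Aqp4, Car14, Rlbp1, Clu, Dkk3 and Abca8a were found by symbol among the 55573 genes of the table, and all 9 were abundant enough to test. The study compared C57BL/6 mice with floxed Myh9 and Myh10, the genes of the nonmuscle myosin heavy chains IIA and IIB, after the adeno-associated virus AAV2 had been injected into the vitreous. The group labelled WT (3 libraries) received AAV2-GFP and the group labelled dKO (3 libraries) received AAV2-Cre. The floxed alleles were thus shared by both groups, and the viral cargo was the difference that the sources used here name. Cells were collected 2 weeks after injection and sorted as retinal ganglion cells (RGCs), and each library came from 3 retinas of 3 mice. The sources used here do not give the promoter in the virus, the gate of the sort or the age of the mice.

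Müller glia span the whole thickness of the retina and wrap neurons, synapses and vessels. They take up synaptic glutamate with the transporter GLAST (Slc1a3) and turn it into glutamine with glutamine synthetase (Glul). They carry excess potassium away through Kir4.1 channels (Kcnj10) next to aquaporin-4 water channels (Aqp4), buffer the pH of the extracellular space with carbonic anhydrase XIV (Car14), and bind 11-cis retinoids with CRALBP (Rlbp1). They also secrete clusterin (Clu), a chaperone-like apolipoprotein, and DKK3 (Dkk3), a glycoprotein of the Dickkopf family, and they express the ATP-binding cassette transporter Abca8a. Several of these genes are not exclusive to Müller glia: astrocytes also express Slc1a3, Aqp4, Kcnj10 and Clu, and the pigment epithelium also expresses Rlbp1.

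Totals were 4569880 to 6146226 counts per library, but a ribosomal RNA row, CT010467.1, held 64.2% of dKO replicate 3 and 89.8% to 92.8% of the others. The counts outside that row, called remaining counts here, were 346037 to 576060 in 5 libraries and 1636581 in dKO replicate 3. The targeted genes were not detectably lower in the libraries labelled dKO: Myh9 had a log2 fold change of -0.044 ± 0.098 and Myh10 of -0.15 ± 0.14 (SE; edgeR adjusted p = 0.908 and 0.735), although counts over the whole gene do not test a deletion of some exons. Every direction is therefore given between libraries as labelled.

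The label RGC was not borne out by the defining markers. The 9 Müller glia genes together took 2.58% to 2.69% of the remaining counts in WT and 2.61% to 2.85% in dKO. A list of 15 RGC markers took 0.0254% to 0.0283% in WT and 0.0329% to 0.0365% in dKO, and only 4 of them passed the filter on low counts. Pou4f1, a defining RGC transcription factor, had 0 to 9 counts per library, while Glul had 3485 to 18169. Of 13 further Müller glia markers, all 13 passed the filter, among them Vim, an intermediate filament gene, at 86.5 ± 3.46 CPM in WT against 95.2 ± 3.37 in dKO (SD over 3 libraries each). Their levels were uneven, from Cyp26a1 at 2.55 CPM to Apoe at 642 in WT. Sox9 was at 7.33 CPM and Sox2 at 9.10 in WT, beside 10.7 for the RGC marker Thy1. CPM are counts scaled by TMM to a common library size. In such bulk samples, fewer Müller glia and less RNA per cell cannot be told apart.

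Per kilobase of exon, Glul stood highest of the set, and the 9 genes covered a wide range of levels. In WT, Glul was at 335.99 ± 3.42 CPM per kb, Clu at 186.6 ± 8.54, Dkk3 at 134.7 ± 2.68, Rlbp1 at 44.2 ± 0.138 and Abca8a at 36.8 ± 1.18 (SD, n = 3 each). The lower end held Aqp4 at 18.6 ± 1.223, Slc1a3 at 17.05 ± 1.596, Car14 at 10.2 ± 0.879 and Kcnj10 at 6.40 ± 0.802 CPM per kb (SD, n = 3 each). The order of the means was the same in dKO. Neighbours in this order did not overlap in WT except Aqp4 (lowest library 17.3 CPM per kb) and Slc1a3 (highest library 18.8). Among all 8444 tested genes ranked by this measure, Glul was at place 9, Clu at 15 and Dkk3 at 23, and Kcnj10, the lowest of the set, at 640. Thy1, the RGC marker with the highest level per length of those tested, was at 3.56 CPM per kb in WT and 3.45 in dKO, below all 9 genes. High levels were not particular to the set. The microglia and macrophage markers Ctss and C1qa were at 171.7 and 95.2 CPM per kb in WT and at 160.4 and 103.4 in dKO. Both stood above Rlbp1 in each group.

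**Figure D1:**
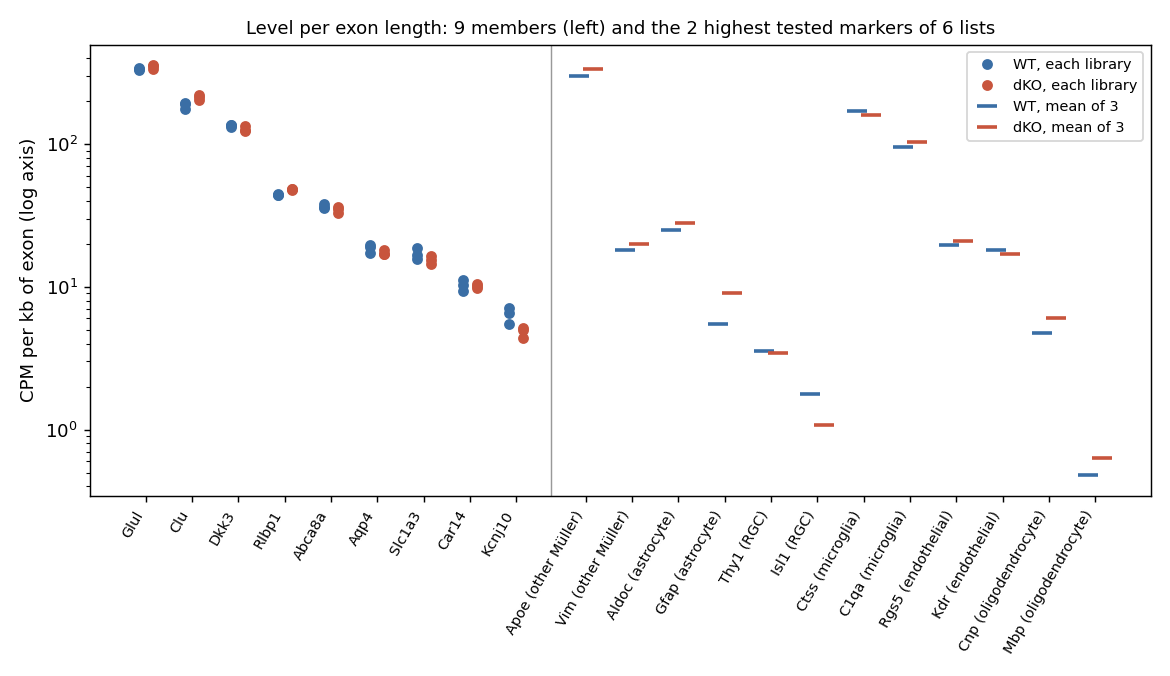
Level per exon length (CPM per kb, log axis) of the 9 Müller glia genes, with a point for each of 3 WT (blue) and 3 dKO (red) libraries, and of the 2 highest tested markers of 6 other lists, with a bar for each group mean. Glul, at 335.99 CPM per kb in WT, stands above the other 8 genes of the set, and Thy1, at 3.56, stands below all 9. The microglia and macrophage marker Ctss, at 171.7 in WT, stands between Clu and Dkk3.

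The first comparison asked whether these genes differed after AAV2-Cre. None of the 9 passed an adjusted p of 0.05 in either direction by edgeR's quasi-likelihood test, where 1.92% of all tested genes did, 0.734% higher and 1.18% lower. At an unadjusted p under 0.05 there was 1 gene, Kcnj10, against 12.5% of all tested genes. DESeq2 also called none of the 9. Limma-voom called Clu higher (adjusted p = 0.00425). Without dKO replicate 3, the library that stands apart, edgeR again called none. The median log2 fold change of the set was -0.078, with 3 values above 0 and 6 below, beside -0.00072 over all tested genes. For 3 of the 9 genes the 3 libraries of each label were fully separated, Clu and Rlbp1 being higher in dKO and Kcnj10 lower. The same separation was seen in 17% of all tested genes, 8.66% higher and 8.31% lower. These signs hold after TMM scaling; scaling to library totals, which the ribosomal RNA row sets, moved the median of all genes by 1.21 and put all 9 genes above 0. The 95% interval of the change stayed between -20.2% and 32.0% for each gene except Kcnj10.

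**Figure D2:**
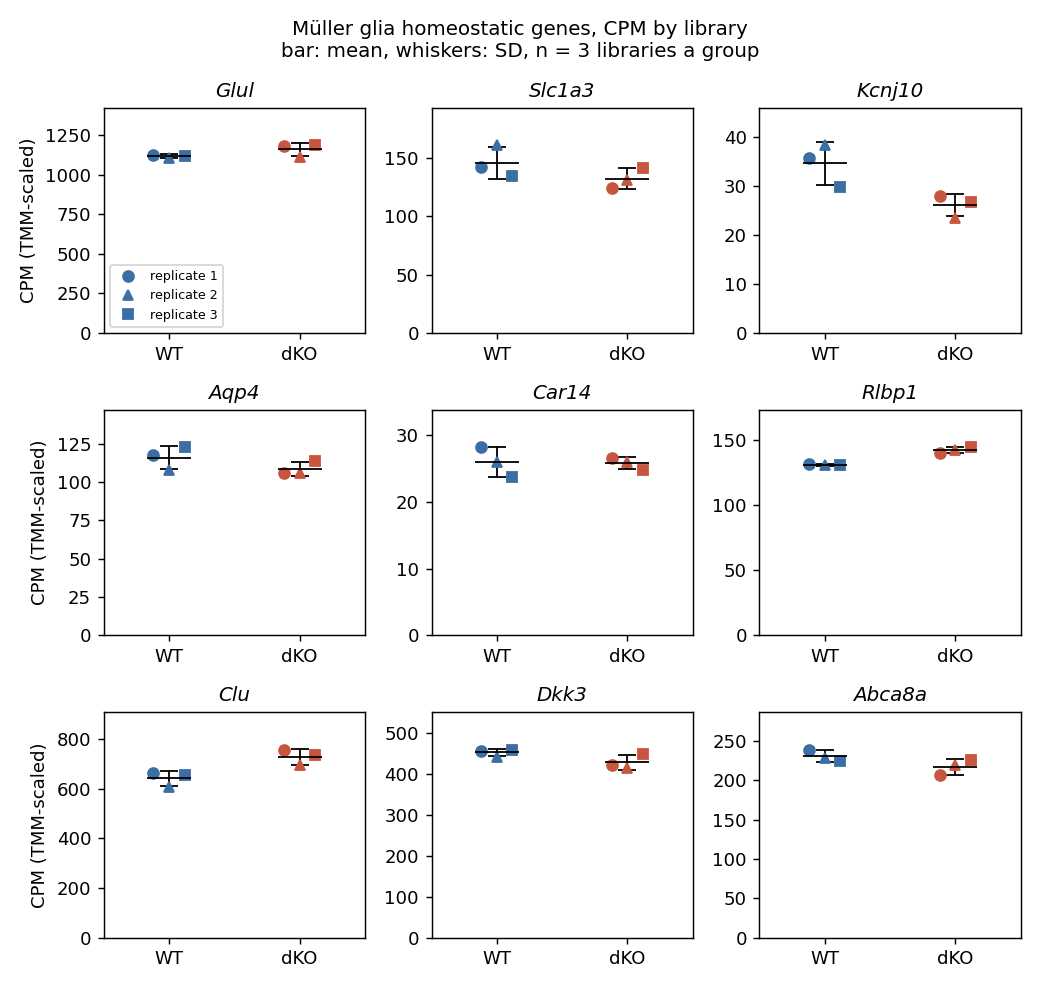
CPM of each of the 9 genes by library, from an axis that starts at 0, with WT in blue, dKO in red, a marker shape for each replicate number, the group mean as a bar and the SD as whiskers (n = 3). The groups are apart for Kcnj10 (29.8 to 38.3 CPM in WT, 23.5 to 28.0 in dKO), Clu and Rlbp1, and overlap for the other 6 genes.

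For glutamate handling, the enzyme Glul and the transporter Slc1a3 did not differ detectably, while a related transporter fell. Glul (ENSMUSG00000026473, chromosome 1, 153899944 to 153909723, plus strand, GRCm38) was at 1126, 1104 and 1119 CPM in WT replicates 1 to 3 and at 1178, 1112 and 1186 in dKO replicates 1 to 3. Its dKO replicate 2 lay inside the WT range, and the log2 fold change was 0.054 ± 0.112 (SE; adjusted p = 0.900), with a 95% interval of -11.1% to 21.2%. Slc1a3 (ENSMUSG00000005360, chromosome 15, 8634124 to 8710764, minus strand) was at 142, 161 and 134 CPM in WT and at 124, 131 and 141 in dKO. These values overlapped, with a log2 fold change of -0.13 ± 0.097 (SE; adjusted p = 0.635). With single libraries left out, the value ran from -0.186 without dKO replicate 3 to -0.064 without WT replicate 2. Without dKO replicate 1 it was -0.085.

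Of 15 further genes of glutamate and GABA transport and metabolism, 11 were tested, none rose and 1 fell (beside 1.18% of all tested genes). This was Slc1a2, which encodes GLT-1, the main glutamate transporter of astrocytes and in the retina also a transporter of bipolar cells and cones. It had 313, 223 and 254 counts in WT and 257, 223 and 800 in dKO, or 67.9 ± 2.96 and 51.9 ± 2.41 CPM (SD, n = 3 each). The groups did not overlap, and the log2 fold change was -0.39 ± 0.097 (SE; edgeR adjusted p = 0.0119). The call was lost with DESeq2 (adjusted p = 0.0556), without WT replicate 1 (0.0769), WT replicate 2 (0.0708) or dKO replicate 1 (0.0597), without the filter on low counts (0.0713) and with a correction for gene length (0.0820). With library-total scaling its value was 0.83 (adjusted p = 0.349), the highest p of the 19 alternatives, and the lowest was 0.00324 with the robust fit. Of 10 tested markers of bipolar cells, 4 fell (beside 1.18% of all tested genes) and 6 did not pass, 2 of them with values above 0. The list took 0.193% to 0.200% of the remaining counts in WT and 0.141% to 0.150% in dKO. Their part in the value of Slc1a2 was not tested. The glutamine transporter gene Slc38a3, known as SNAT3, and the GABA transporter gene Slc6a11 had values of 0.039 ± 0.097 and -0.061 ± 0.101 (SE; adjusted p = 0.921 and 0.866). Per length, they were the most abundant of the tested genes of this list.

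For potassium and water handling, Kcnj10 had the smallest p of the 9 genes, just above the threshold. Kcnj10 (ENSMUSG00000044708, chromosome 1, 172341210 to 172374085, plus strand) was at 35.6, 38.3 and 29.8 CPM in WT and at 28.0, 23.5 and 26.8 in dKO, from 97 to 411 counts per library. Every dKO library was below every WT library. The log2 fold change was -0.39 ± 0.11 (SE; adjusted p = 0.0554), a difference of -23.4% with a 95% interval of -34.6% to -10.4%. It passed with the robust fit (adjusted p = 0.0367), without WT replicate 3 (0.0234, with a log2 fold change of -0.48) and with the correction for gene length (0.0488). It did not pass under the other alternatives, of which DESeq2 gave the largest adjusted p, 0.440. With single libraries left out, the value nearest 0 was -0.32, without WT replicate 2 (edgeR adjusted p = 0.278).

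Aqp4 (ENSMUSG00000024411, chromosome 18, 15389496 to 15410982, minus strand), whose channel sits beside Kir4.1 in the glial endfeet, was at 118, 108 and 123 CPM in WT and at 106, 106 and 114 in dKO. The highest dKO library lay above the lowest WT library, and the log2 fold change was -0.097 ± 0.094 (SE; adjusted p = 0.747). It was -0.149 without WT replicate 2 and -0.053 without WT replicate 3. Of 14 further genes of potassium and water handling, 8 were tested and edgeR called none. At an unadjusted p under 0.05 there were 2, beside 12.5% of all tested genes. The values were below 0 for 6 genes and above for 2, with a median log2 fold change of -0.17. Atp1b2, a sodium-potassium pump subunit of glia and the most abundant per length, was at 34.5 ± 4.99 CPM in WT against 27.1 ± 1.23 in dKO (SD over 3 libraries each; log2 fold change -0.33 ± 0.11, SE; adjusted p = 0.138). Dag1, dystroglycan, which anchors aquaporin-4 at endfeet, had a value of -0.14 ± 0.14 (SE; adjusted p = 0.755). Kcnma1, which encodes the BK potassium channel and was singled out after its values were seen, had -0.38 ± 0.11 (SE; adjusted p = 0.0502). It passed with RLE scaling (adjusted p = 0.0482), the filter on CPM (0.0461), limma-voom (0.0346), the robust fit (0.0298) and without dKO replicate 2 (0.0147). The largest adjusted p over its alternatives was 0.474, with DESeq2. Kcnj16, which encodes a partner subunit of Kir4.1, had 0 counts in all 6 libraries, which allows up to 3 counts in each.

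**Figure D3:**
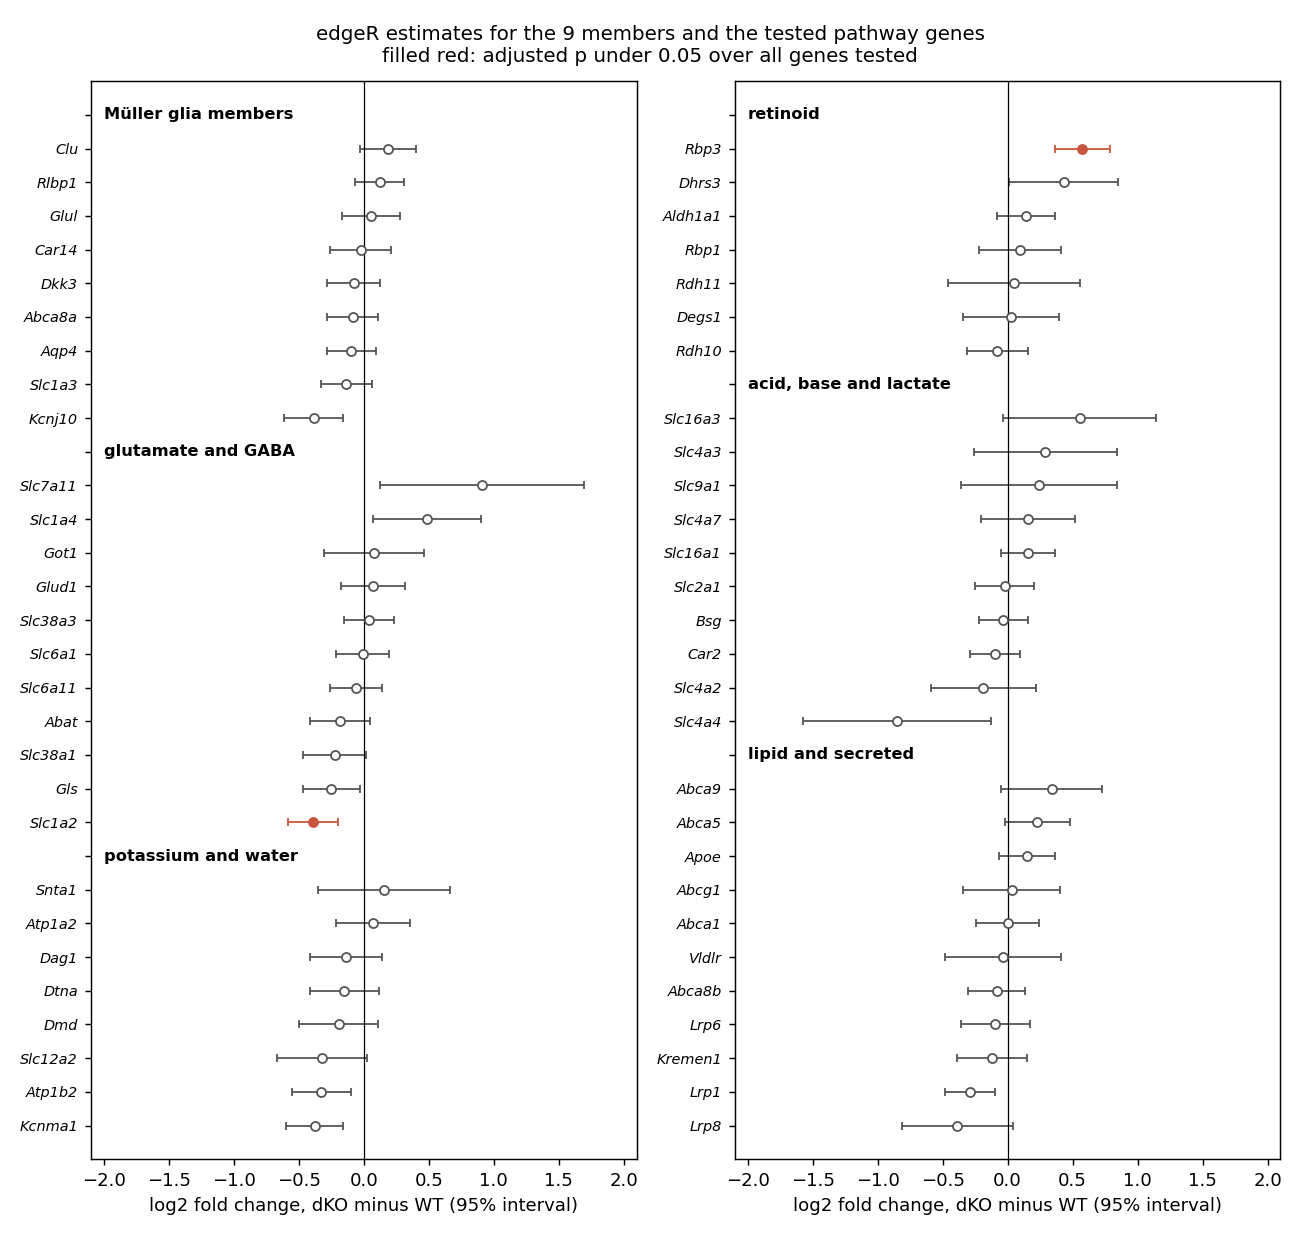
Log2 fold changes (dKO minus WT) with 95% intervals from edgeR for the 9 Müller glia genes and for the 47 tested genes of the 5 pathway lists, with filled red points for an adjusted p under 0.05. Slc1a2, at -0.39, and Rbp3, at 0.58, are the called genes, and Kcnj10, at -0.39, is the lowest of the 9.

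For the extracellular pH, Car14 (ENSMUSG00000038526, chromosome 3, 95897768 to 95904691, minus strand) had the value nearest 0 of the set. It was at 28.2, 26.0 and 23.7 CPM in WT and at 26.7, 26.0 and 24.9 in dKO, and all dKO values lay inside the WT range. The log2 fold change was -0.023 ± 0.117 (SE; adjusted p = 0.964), with a 95% interval of -16.3% to 15.7%, from 82 to 381 counts per library. Its sign depended on the scaling and on single libraries. Of 11 further genes of acid, base and lactate transport, 10 were tested and edgeR called none, with 1 at an unadjusted p under 0.05 (beside 12.5% of all tested genes). The most abundant per length were Bsg, the basigin chaperone of lactate transporters (-0.034 ± 0.094, SE; adjusted p = 0.928), and Car2, the cytosolic carbonic anhydrase II (-0.098 ± 0.096, SE; adjusted p = 0.753).

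For retinoid handling, Rlbp1 (ENSMUSG00000039194, chromosome 7, 79374870 to 79387048, minus strand) was at 131, 131 and 130 CPM in WT and at 140, 142 and 144 in dKO. The groups did not overlap, but the log2 fold change was only 0.12 ± 0.094 (SE; adjusted p = 0.666), with a 95% interval of -4.49% to 23.9%. The WT values had a coefficient of variation of 0.311%, less than the 4.49% that counting alone would give at 412 to 600 counts, so their spread understates the error. Of 14 further retinoid genes, 7 were tested, 1 rose (beside 0.734% of all tested genes) and none fell. This was Rbp3, the retinoid carrier that photoreceptors secrete between themselves and the pigment epithelium, at 39.4 ± 0.650 CPM in WT against 60.2 ± 10.7 in dKO (SD over 3 libraries each; log2 fold change 0.58 ± 0.11, SE; adjusted p = 0.000183). With library-total scaling the adjusted p was 0.301 and the call was lost. Of 14 tested rod markers 8 rose (beside 0.734% of all tested genes), and the list took 0.209% to 0.236% of the remaining counts in WT against 0.372% to 0.460% in dKO. Whether they account for Rbp3 was not tested. Rdh10, a retinol dehydrogenase of Müller glia and pigment epithelium, had -0.078 ± 0.117 (SE; adjusted p = 0.848). None of 10 pigment epithelium markers passed the filter, and Rpe65, its retinoid isomerase, had 1 count in dKO replicate 1 and 0 in the other libraries.

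Among the secreted and lipid-related genes, Clu (ENSMUSG00000022037, chromosome 14, 65968483 to 65981547, plus strand) was at 661, 608 and 655 CPM in WT and at 757, 694 and 736 in dKO. Every dKO library was above every WT library. The log2 fold change was 0.18 ± 0.11 (SE; adjusted p = 0.505 with edgeR), a difference of 13.7% with a 95% interval of -2.14% to 32.0%. Over the 19 alternatives its adjusted p ran from 0.00425 with limma-voom to 0.760 without WT replicate 2. Dkk3 (ENSMUSG00000030772, chromosome 7, 112116017 to 112159057, minus strand) was at 457, 442 and 459 CPM in WT and at 422, 414 and 449 in dKO. Abca8a (ENSMUSG00000041828, chromosome 11, 110025634 to 110095978, minus strand) was at 239, 229 and 224 CPM in WT and at 206, 219 and 226 in dKO. In both genes dKO replicate 3 lay inside the WT range and the other dKO libraries lay below it. The log2 fold changes were -0.078 ± 0.104 for Dkk3 and -0.085 ± 0.098 for Abca8a (SE; adjusted p = 0.822 and 0.794). With single libraries left out, Dkk3 ran from -0.11 without dKO replicate 3 to -0.055 without dKO replicate 2, and Abca8a from -0.11 without dKO replicate 3 to -0.044 without dKO replicate 1.

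Of 13 further genes of lipid transport and Dickkopf signalling, 11 were tested and edgeR called none, with 1 at an unadjusted p under 0.05 (beside 12.5% of all tested genes). Apoe, the main lipid carrier that retinal glia secrete, was at 642 ± 27.1 CPM in WT against 712 ± 27.2 in dKO (SD over 3 libraries each; log2 fold change 0.15 ± 0.11, SE; adjusted p = 0.637). Lrp1, a receptor for apolipoprotein E, had -0.29 ± 0.096 (SE; adjusted p = 0.116). Limma-voom, with and without quality weights, called both Apoe and Lrp1, and the robust edgeR fit called Lrp1. Dkk1 and Dkk2 had 0 counts in every library, which allows up to 3 counts in each. Over all 5 pathway lists, 47 of 67 genes were tested, 1 rose and 1 fell, or 4.26% beside 1.92% of all tested genes.

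Counts per 1000 Glul counts compare the genes within a library and do not depend on scaling. Kcnj10 had 31.6, 34.7 and 26.7 per 1000 Glul counts in WT and 23.8, 21.2 and 22.6 in dKO, and the groups did not overlap. Clu had 587, 550 and 586 in WT and 642, 624 and 621 in dKO, again without overlap and in the other direction. Dkk3 had 405, 401 and 410 in WT and 358, 372 and 378 in dKO. In all, 5 of the 8 genes set against Glul were lower in dKO without overlap (Kcnj10, Slc1a3, Aqp4, Abca8a and Dkk3), 2 were higher (Rlbp1 and Clu), and Car14 overlapped. Over all other tested genes set against Glul, 10.9% were lower and 5.97% higher without overlap. These 8 ratios share the Glul count of each library, so they are not independent of each other. Glul itself had a log2 fold change of 0.054 (edgeR adjusted p = 0.900), which enters every ratio. By CPM, the groups overlapped for Slc1a3, Aqp4, Abca8a and Dkk3. Slc1a2, set against Glul in the same way, had 60.7, 64.0 and 57.9 in WT and 41.9, 48.6 and 44.0 in dKO.

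**Figure D4:**
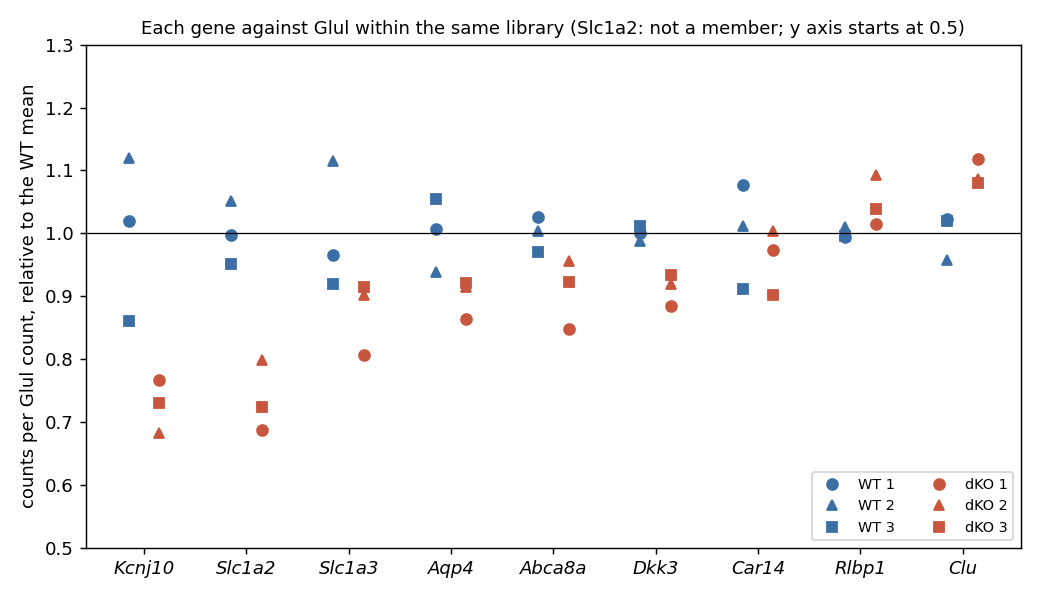
Counts per Glul count in each library, relative to the WT mean, for the other 8 genes and Slc1a2, on an axis that starts at 0.5, with WT in blue and dKO in red and a marker shape for each replicate number. The dKO points of Kcnj10 (21.2 to 23.8 per 1000 Glul counts) and Slc1a2 (41.9 to 48.6) sit farthest below 1, and those of Clu sit above it.

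Transcript length moved with these values. Over 821 protein-coding genes averaging 20 CPM or more, longer exons went with lower log2 fold changes (Spearman correlation -0.43, across genes, which are not independent replicates). Over all 8287 tested protein-coding genes the correlation was -0.21. The median was 0.12 for 130 of the 821 genes with 1500 to 3000 bases and -0.069 for 326 with over 8000 bases. In the set, the 5 genes of 2543 to 3437 bases (Glul, Clu, Dkk3, Rlbp1, Car14) had values of -0.078 to 0.18, and the 4 genes of 5407 to 8537 bases (Kcnj10, Aqp4, Abca8a, Slc1a3) had -0.39 to -0.085. With a correction for gene length added after seeing the data, Clu was at 0.14, Rlbp1 at 0.064, Glul at 0.0086, Car14 at -0.10 and Dkk3 at -0.12. Of the 4 longer genes, Slc1a3 was at -0.087, Aqp4 at -0.085, Abca8a at -0.072 and Kcnj10 at -0.39. All but Kcnj10 then lay inside the range of the 5 shorter genes. Glul and not Car14 was then nearest to 0.

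The 9 genes did not vary as a block over the 6 libraries. On log2 CPM, Aqp4 and Dkk3 (Pearson's r 0.89) and Glul and Clu (0.87) were the most alike pairs, and Rlbp1 and Kcnj10 (-0.83) the least alike. With only 6 libraries from 2 groups, these are descriptions. Among 843 other genes at this level, those most like Glul were Rnf13 (r 0.96), Sec14l1 (0.96) and Rps9 (0.95). Those most like Rlbp1 were Sptan1 (0.99), Psap (0.98) and Rps7 (0.98). Rlbp1, Sptan1 and Psap were each higher in dKO without overlap by CPM, as were 8.66% of all tested genes. Their r values thus include the difference between the groups.

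Near-identical sequences and overlaps were looked up for each gene. Glul resembled the pseudogene Glns-ps1 over 1126 bases at 96.8% identity, which had 1 to 15 counts per library. Abca8a resembled its neighbour Abca8b over 218 bases at 96.3% identity. Car14 shared 445 exonic bases with Aph1a on the opposite strand, which had 7 to 68 counts per library. Kcnj10 and Slc1a3 shared stretches of 100 to 128 bases with other genes. Since the handling of strand and of reads with several matches is unknown from the sources used here, small shares of these counts are uncertain.

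Other glial and cell type markers were read beside the set. Of the 13 further Müller glia markers edgeR called none, with 1 at an unadjusted p under 0.05 (beside 12.5% of all tested genes). Their median log2 fold change was 0.14, and limma-voom called Apoe. The most abundant per length were Apoe and Vim (0.14 ± 0.094, SE; edgeR adjusted p = 0.602). Gfap, the filament of astrocytes and of reactive Müller glia, rose, with 23.1 ± 2.77 CPM in WT against 37.9 ± 4.08 in dKO (SD over 3 libraries each; edgeR adjusted p = 4.04e-05). It was 1 of 2 called among 4 tested astrocyte markers (beside 1.92% of all tested genes), the other being Slc1a2. Aldoc, the brain form of aldolase and the highest of that list per length, had 0.17 ± 0.095 (SE; adjusted p = 0.468), while the defining astrocyte gene Pax2 had 0 or 1 counts and S100b 0 to 10. The astrocyte list took 0.172% to 0.177% of the remaining counts in WT and 0.180% to 0.192% in dKO. Its part in the values of Kcnj10, Aqp4, Slc1a3 and Clu was not tested.

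Among neuronal markers, the called rod genes included Gnat1, Sag, Pde6a, Pde6b, Prph2, Rom1 and Rp1, all of phototransduction or the outer segment. Gnat1, the rod transducin alpha subunit, rose from 25.4 ± 1.96 CPM in WT to 49.8 ± 8.41 CPM in dKO (SD over 3 libraries each). The called bipolar genes were Prkca, Grm6, Trpm1 and Gpr179, of which Trpm1, the channel of ON bipolar cells, was at 58.1 ± 4.58 CPM in WT against 39.1 ± 2.60 in dKO. Cabp5, a calcium-binding protein gene of bipolar cells, was not called (0.023 ± 0.146, SE; adjusted p = 0.970). Of the RGC list, Nefl, the light neurofilament, was the 1 called of 4 tested, beside 0.734% of all tested genes called higher. It was at 2.24 ± 0.718 CPM in WT against 7.16 ± 0.583 in dKO (log2 fold change 1.63 ± 0.28, SE; adjusted p = 3.96e-05). These values rest on 8, 6 and 12 counts in WT and 40, 30 and 100 in dKO. Thy1 (-0.073 ± 0.168, SE; adjusted p = 0.911), Gap43 (0.90 ± 0.30, SE; 0.120) and Isl1 (-0.65 ± 0.23, SE; 0.138), which is also in the bipolar list, were not called. Of the microglia and macrophage markers 12 were tested, and Lyz2, a lysozyme, was the 1 called (0.50 ± 0.10, SE; adjusted p = 0.000392), beside 0.734% of all tested genes called higher. Ctss and C1qa, the highest per length, were not called. None was called among 6 tested endothelial and mural markers (Rgs5 and Kdr highest), 2 of oligodendrocytes (Cnp and Mbp) and 2 of B or plasma cells (Jchain and Xbp1). With library-total scaling the calls of Gfap, Nefl and Lyz2 were lost (edgeR adjusted p = 0.301 for each). Those of Prkca (0.603), Trpm1 (0.465), Gpr179 (0.545) and Grm6 (0.525) were lost too, with values above 0. Over all tested genes this scaling called 3 higher and 0 lower. The call of Grm6 (-0.67, adjusted p = 0.0351 with the main edgeR fit) was also lost with several other alternatives, where the value stayed near. It was -0.67 with DESeq2 (adjusted p = 0.483), -0.63 without the filter on low counts (0.0829), -0.67 with limma-voom and quality weights (0.0564), and -0.76 to -0.57 without any single library other than dKO replicate 2 (0.0567 to 0.159). The part of these cell types in the values of the 9 genes was not tested.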

How the data were processed

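The deposited table holds unnormalized whole read counts, with a row for each Ensembl gene. GRCm38, DESeq2 1.22.2 and STAR 2.7.0d are named, per the submitters' processing notes; per the labels' protocols, libraries were made from total RNA with a stranded kit. The counting program is not given in the sources used here. Genes were kept with edgeR's filterByExpr (minimum count 10, minimum total 15), scaled by TMM with factors of 0.641 to 3.43 and compared by the quasi-likelihood F test of edgeR 4.0.16 under R 4.3.3, two-sided, with group as the only term. P-values were Benjamini-Hochberg adjusted over 8444 genes, with a threshold of 0.05. A standard error is the size of the log2 change over the root of its F statistic, and 95% intervals use the moderated degrees of freedom. Positions and exon lengths (union of exons) came from GENCODE M21 on GRCm38, where 55480 of 55573 IDs were found; similar transcripts were sought with blastn 2.17.0 (at least 95% identity over 100 bases). Correlations used log2(CPM + 0.5).

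The 9 genes and all lists were chosen with earlier results of these data known. Named genes are the 9, the called genes of each pathway list or otherwise its 2 highest per length, the 2 highest and the called genes of each marker list, and, for Glul and Rlbp1, the 3 most alike genes; further genes are named where a value bears on the set, and some named by the rule are not reported here. Within-group library pairs differed by more than counting noise (chi-square per degree of freedom 1.17 to 4.19), and each library counts as 1 replicate. The labels do not say whether replicates share mice, so the spread behind each p-value is that between libraries, which may be technical. Alternatives used DESeq2 1.42.0, limma 3.58.1 (voom), other scalings and filters, a robust fit, a replicate block, each library left out, the ribosomal RNA row left out and dKO replicate 3 thinned; a gene-length correction (loess, span 0.5, over protein-coding genes of at least 5 CPM, as offsets) was added after seeing the data. The edgeR steps were tested on simulated data. Figures used matplotlib 3.10.9.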

Additional observations from a re-analysis of the deposited data

How the results depend on the processing

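The number of genes called over all tested was 62 higher and 100 lower; it was 26 and 26 with DESeq2, 3 and 0 with library-total scaling, and 29 to 71 and 61 to 115 with single libraries left out (29 and 61 without WT replicate 1, 66 lower without dKO replicate 3). Of the 9 Müller glia genes, 0 were called in each direction. With limma-voom, with and without quality weights, 1 was higher (Clu). With the robust fit and with the gene-length correction 1 was lower (Kcnj10), and leaving out single libraries gave 0 to 1 lower, the 1 being Kcnj10 without WT replicate 3. The 2 called pathway genes became 0 with library-total scaling, 1 with no low-count filter, with DESeq2 and with the gene-length correction, 3 with RLE scaling and with the CPM filter (both adding Kcnma1), 5 with limma-voom, 4 with quality weights, 4 with the robust fit and 1 to 3 with single libraries left out.

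Library-total scaling, in which the ribosomal RNA row sets the sizes, moved the median log2 fold change of all genes by 1.21 and that of the 9 genes to 1.17, or -0.043 relative to all genes. It turned Slc1a3 (1.13), Aqp4 (1.15), Kcnj10 (0.83), Dkk3 (1.17), Car14 (1.17), Abca8a (1.15), Slc1a2 (0.83), Kcnma1 (0.80), Atp1b2 (0.89) and the bipolar genes Prkca (0.44), Grm6 (0.55), Trpm1 (0.62) and Gpr179 (0.51) above 0; relative to all genes Kcnj10 stayed at -0.38 and Slc1a2 at -0.38. Car14 also changed sign with upper-quartile scaling (0.0014), no low-count filter (0.0070), without WT replicate 1 (0.042), without dKO replicate 3 (0.019; single libraries left out gave -0.085 to 0.042) and with dKO replicate 3 thinned (0.043). The median of the 9 genes was -0.11 to -0.044 with single libraries left out. Their share, 2.62% in WT and 2.72% in dKO, was 0.213% and 0.509% of library totals, 2.76% and 2.86% without mitochondrially encoded genes, and 2.59% to 2.64% and 2.65% to 2.78% with single libraries left out.

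The replicate numbers are shared by the groups, but same-numbered libraries did not deviate together (correlations -0.14, -0.027 and -0.14). With the replicate block, 58 genes were higher and 100 lower, and 0 of the 9 genes were called (Kcnj10 -0.37, adjusted p = 0.0828). Car14 and Kcnj10, with 82 to 411 counts per library, are the least precisely measured of the set.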
